A study of Rattus norvegicus with 12 samples.

Results

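The unannotated transcribed loci of rat jejunum and liver are stretches of the genome where the submitters' processing found transcripts that match no gene of their annotation. They are the entries of the 2 deposited tables whose identifier marks them as not annotated, and they were selected on abundance, as a mean of at least 10 normalized counts over the 6 libraries of a tissue. This gave 1063 loci of 2505 such entries in jejunum and 675 of 1030 in liver, or 1738 of the 40271 entries of both tables. The mean count chose the loci, so their abundance is given as a description. The mean takes all 6 libraries alike, but a locus can reach it through 1 group. In 190 jejunal and 123 liver loci the mean of 1 group was under 10, and the response of such loci is not independent of the choice.

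The groups were Wistar Han rats dosed by gavage with an antibiotic cocktail over 2 weeks and rats that received saline instead, which the labels call wild type. A dose was 5 mL/kg. Of the components, amphotericin B, an antifungal, was at 0.2 g/L and vancomycin at 10 g/L, while ampicillin, metronidazole and neomycin were each at 20 g/L. Poly(A) RNA from 3 antibiotics and 3 wild-type samples of each tissue was sequenced, 12 libraries in all. All rats were kept in a specific pathogen-free facility, and the labels used here give neither age nor sex nor which libraries share an animal. The p-values therefore measure the spread between these samples.

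Transcript assembly from RNA-seq reads marks loci of several kinds: long noncoding RNAs, pseudogenes, copies of transposable elements, and pieces of known genes that an annotation leaves out, such as a longer last exon. Long noncoding RNAs are usually less abundant and less often spliced than messenger RNAs. A reading of strand needs a library that marks it. The labels' protocol names no strand-marking step, so strands below are those listed in the tables, and reads of a locus and of an adjoining or antisense gene cannot be told apart. Loci are named by position, as chromosome, start and end in the coordinates of the tables, whose build is not given in the sources used here.

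Read totals per library were 14592126 to 18322008 for jejunum and 15017775 to 19318616 for liver. Some stood apart within their group. Mitochondrial genes held 64.8%, 51.3% and 38.7% of reads in jejunum with antibiotics, against 63.0%, 26.8% and 80.7% in wild-type jejunum, and 4.48%, 3.93% and 3.5997% in liver with antibiotics, against 25.0%, 6.42% and 16.0% in wild-type liver. Summed counts of 7 smooth muscle markers were 165823 to 183207 in jejunum with antibiotics and 43346 to 127854 in wild type, with all 7 above 0 in log2 fold change and 1 past the threshold. Those of 6 adipocyte markers were 2208 to 5574 with antibiotics and 5470 to 36705 in wild type, with all 6 below 0 and 0 past it. All 6 enterocyte markers were found in jejunum, at sums of 20447 to 27609 with antibiotics and 21046 to 57818 in wild type, with all 6 below 0 and 0 past the threshold. All 6 hepatocyte markers were found in liver, with 2 past it. In liver, 4 erythroid markers summed to 8271 to 19347 with antibiotics and 28329 to 60103 in wild type, with all 4 below 0 and 2 past the threshold. The 4 macrophage markers summed to 4114 to 4832 in antibiotics livers and 6856 to 10671 in wild-type livers, with 4 below 0 and 3 past the threshold. In bulk samples fewer cells of a type and less RNA per cell cannot be told apart. The part of these measures in the results below was not tested.

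Per length, the unannotated loci were less abundant than annotated genes that passed the same minimum. Their median level was 1.81 FPKM in jejunum and 1.91 FPKM in liver, against 5.48 and 4.39 FPKM for annotated genes. Annotated lincRNAs, the long intergenic noncoding RNAs, had medians of 1.54 FPKM over 122 genes in jejunum and 1.41 FPKM over 126 genes in liver. The loci were also shorter, with a median listed length of 1708 bases in jejunum and 1642 in liver, against 2381.5 and 2353 bases for annotated genes. The shortest and longest had 202 and 16509 bases in jejunum, and 256 and 26507 bases in liver.

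**Figure D1:**
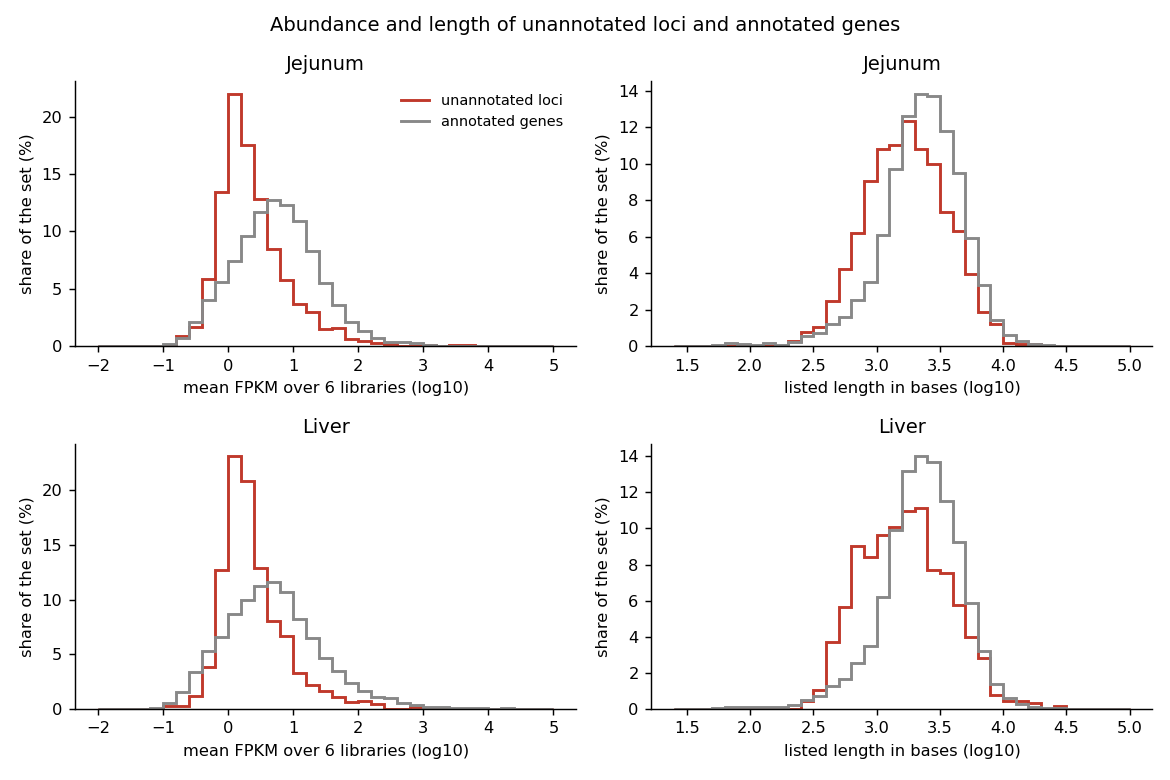
Distribution of mean FPKM (left, log10 axis) and listed length in bases (right, log10 axis) for unannotated loci (red) and annotated genes with the same minimum mean of 10 normalized counts (grey), as the share of each set in jejunum (top) and liver (bottom). The red curves lie to the left of the grey ones, with medians of 1.81 against 5.48 FPKM in jejunum and 1.91 against 4.39 FPKM in liver.

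A locus whose genomic span equals its listed length has no intron in the table. This held for 369 of the jejunal loci (34.7%) and 232 of the liver loci (34.4%), against 5.06% and 4.44% of annotated genes. Reads were found in all 6 libraries for 937 jejunal loci (88.1%) and 651 liver loci (96.4%). Few loci were abundant: 40 in jejunum and 20 in liver had a mean of 1000 or more. At the minimum itself, chr1:94574276-94576479 in jejunum had 1.13, 4.24 and 8.19 normalized counts with antibiotics and 8.09, 8.97 and 30.1 in wild type, and lies just inside. Just outside lies chr11:76429576-76459431, with 24.9, 9.32 and 13.9 in antibiotics jejunum and 7.08, 4.83 and 0 in wild type. In liver the nearest loci were chr8:114865891-114866668 inside, with 12.9, 9.22 and 9.003 with antibiotics and 7.64, 12.3 and 9.13 in wild type, and chr5:10706916-10718114 outside, with 17.9, 1.68 and 0 with antibiotics and 22.9, 2.04 and 14.8 in wild type. The remaining 2 nearest were chr8:117973250-117979657 (inside) and chr8:21640639-21645203 (outside) in jejunum, and chr1:131988299-131992273 (inside) and chr2:218777791-218784439 (outside) in liver.

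Together the loci took 1.79%, 2.55% and 2.25% of reads in jejunum with antibiotics, against 2.18%, 2.69% and 1.93% in wild-type jejunum. These shares overlapped and differed by -0.0715 percentage points (exact two-sided permutation test, p = 0.8). In liver the share was 0.766%, 0.820% and 0.867% with antibiotics and 1.24%, 0.977% and 1.07% in wild type. The liver groups did not overlap, and the difference was -0.279 percentage points (exact two-sided permutation test, p = 0.1, the smallest that 3 against 3 can give). The 4 most abundant loci of a tissue held 36.6% to 78.0% of these reads in jejunum and 18.2% to 39.5% in liver. A few loci thus held a large part of the share in jejunum and a smaller part in liver. Without the 4, the liver share was 0.626%, 0.649% and 0.660% with antibiotics and 0.751%, 0.721% and 0.674% in wild type. These groups still did not overlap.

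Several of the most abundant loci sat beside ribosomal RNA genes or carried a protein family of mitochondrial genes. In jejunum, chr1:11906610-11915465 lies 17 bases from a 5.8S ribosomal RNA gene, on the other strand. It had 52953, 94881 and 39947 normalized counts with antibiotics and 137343, 69891 and 302257 in wild type, which overlap (log2 fold change -1.28, SE 0.56, limma adjusted p = 0.211). A locus near another ribosomal RNA gene, Rn5-8s, was abundant in both tissues. In liver it spans chr14:46633764-46644318, 1848 bases from that gene, and had 6886, 6583 and 8180 with antibiotics and 14008, 11408 and 14922 in wild type. All antibiotics livers were lower, and it fell (log2 fold change -0.89, SE 0.22, adjusted p = 0.029). Its jejunal counterpart, chr14:46633756-46644301, had 7295, 15447 and 4704 with antibiotics and 13674, 5635 and 32994 in wild type, with overlapping groups.

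The second most abundant jejunal locus, chr20:19481254-19485846, carries the Pfam family PF00361, which in mammals covers NADH dehydrogenase subunits encoded in mitochondrial DNA. It had 82778, 48444 and 32191 normalized counts with antibiotics and 69293, 19500 and 215818 in wild type, and the groups overlap. Set against the summed counts of mitochondrial genes in the same library, this was 0.694%, 0.698% and 0.805% with antibiotics and 0.594%, 0.723% and 0.682% in wild type. The share varied far less between jejunal libraries than the count did. At the same place in liver, chr20:19483978-19485846 had 2941, 5389 and 6272 with antibiotics and 53761, 7728 and 39662 in wild type. Antibiotics livers were all lower, but the difference did not pass (log2 fold change -2.46, SE 0.75, adjusted p = 0.0789). Relative to the mitochondrial sum it was 0.368%, 0.902% and 1.202% with antibiotics and 1.12%, 0.781% and 1.34% in wild type, so the groups overlap on that scale. A shorter locus of this kind, chr5:6372709-6373354 in jejunum, carries families of NADH dehydrogenase chain 3 and cytochrome c oxidase subunit III. Its counts were 1831, 1254 and 412 with antibiotics and 972, 331 and 3293 in wild type.

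Other abundant liver loci lay at varied distances from genes. The locus chr7:28486683-28491828 lies 74 bases past the end of Igf1, the liver-made insulin-like growth factor, on the other strand. It had 9064, 10583 and 10605 normalized counts with antibiotics and 12531, 14099 and 10475 in wild type, which overlap (log2 fold change -0.29, SE 0.22, adjusted p = 0.399). The longest locus, chr14:22038200-22066958 with 26507 bases, lies 5066 bases from Sult1e1, the estrogen sulfotransferase. It had 5930, 3433 and 4921 with antibiotics and 13579, 6277 and 8032 in wild type. Antibiotics livers were lower in each library without passing (log2 fold change -0.92, SE 0.32, adjusted p = 0.0788), while Sult1e1 itself fell (-1.58, adjusted p = 0.00842). On chr6:30402581-30410220, 215244 bases from the nearest annotated gene Itsn2, counts were 1730, 1916 and 2454 with antibiotics and 7582, 3871 and 5921 in wild type, and this locus fell (-1.47, SE 0.27, adjusted p = 0.0129). In jejunum the remaining abundant loci were chr14:46329443-46329907, chr7:11047439-11049448, which starts 2 bases from the G protein gene Gna11, and chr3:62487236-62491356, 9 bases from the splicing factor gene Hnrnpa3. Their log2 fold changes were -0.48, -1.23 and -0.29, and none passed (adjusted p = 0.659, 0.112 and 0.609).

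A Pfam protein family was listed for 170 jejunal loci (16.0%) and 132 liver loci (19.6%). The groups of families below were formed after the entries were seen. Retroelement families, from the coats, reverse transcriptases and L1 proteins of transposable elements, marked 25 loci in jejunum and 34 in liver. In jejunum 0 of the 25 passed by limma, with 8 at an unadjusted p below 0.05 (median log2 fold change 0.20), and in liver 4 fell and 0 rose (median -0.37). Over all features 22.2% had an unadjusted p below 0.05 in jejunum and 4.89% fell in liver. The 4 are 11.8% of the 34, and 14.7% of all liver loci fell. One that fell, chr10:98409706-98412261, carries the superantigen family of mouse mammary tumour virus. It had 113, 103 and 109 normalized counts with antibiotics and 800, 183 and 441 in wild type, with no overlap (log2 fold change -1.88, SE 0.47, adjusted p = 0.0419). Also lower in each antibiotics liver was chr8:107453376-107455226, with a retroviral envelope family, at 6.97, 11.7 and 5.25 against 36.9, 68.4 and 27.4 in wild type (-2.29). Its antibiotics mean was under 10. It reached the minimum only through the wild-type livers, so no test is given for it. The most abundant retroelement locus in both tissues lies near Klhl25 on chromosome 1 and carries a retroviral capsid family. In jejunum it had 497, 440 and 389 with antibiotics and 349.8, 257 and 394 in wild type, and in liver 360.4, 449 and 730 with antibiotics and 1516, 615 and 888 in wild type, without passing in either (adjusted p = 0.383 and 0.121).

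The second longest liver locus, chr1:258773551-258790008 with 16458 bases, lies by the P450 gene Cyp2c13 and carries reverse transcriptase, endonuclease and RNA-binding families of L1 elements. Its counts were 492, 219 and 517 with antibiotics and 893, 453.5 and 390.3 in wild type, which overlap (log2 fold change -0.50, adjusted p = 0.448). Reads of repeated elements can be placed at several copies, so counts of single retroelement loci are uncertain.

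KRAB or C2H2 zinc finger families, typical of repressors of transposable elements, marked 22 jejunal and 11 liver loci. In jejunum 0 passed by limma, with 1 at an unadjusted p below 0.05 (median 0.56), and 1 liver locus fell (median -0.58). That locus, chr1:61245322-61248299, had 93.6, 94.7 and 96.0 normalized counts with antibiotics and 308, 131 and 249 in wild type (log2 fold change -1.18, SE 0.30, adjusted p = 0.0345). Ribosomal protein families marked 15 and 9 loci, among which 13 of 15 were below 0 in jejunum. By limma 0 of the 15 passed, with 5 at an unadjusted p below 0.05 (median -0.82), against 1.28% called and 22.2% at that p over all features. Of the 15, 10 are shorter than 1000 bases, and all jejunal loci of that length had a median of -0.50. In liver 1 fell, chr10:85864605-85865309 with an L19e family, at 51.8, 29.3 and 17.3 against 178, 65.4 and 128 in wild type (-1.90, adjusted p = 0.031). Ribosomal proteins have many processed copies, and reads of near-identical copies cannot be assigned with certainty.

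Cytochrome P450 families, the enzymes that oxidise drugs and steroids, marked 3 jejunal loci, none past the threshold, and 4 liver loci. In liver, chr1:148192383-148198306 had 37.8, 43.6 and 33.8 normalized counts with antibiotics and 14.01, 14.3 and 17.1 in wild type. Each antibiotics liver exceeded each wild-type liver, and it rose (log2 fold change 1.28, adjusted p = 0.041). Thus 1 of the 4 rose, where 7.93% of all liver features did. The other 3 had log2 fold changes of -0.18 to -2.38 without passing (adjusted p = 0.087 to 0.915), among them chr12:10898412-10931812 with 184, 14.2 and 234 with antibiotics and 697, 399 and 334 in wild type. P450 genes lie in clusters of near-identical copies, so reads of these loci are uncertain. Families of interferon-induced proteins marked 1 jejunal locus, which did not pass (0.69, adjusted p = 0.645), and 2 liver loci. Of these a locus with guanylate-binding families did not pass (-1.43, adjusted p = 0.206), and chr13:91968021-91975679 (HIN-200) fell, with 13.9, 18.4 and 12.0 against 49.7, 42.9 and 34.2 in wild type (-1.46, adjusted p = 0.0315).

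The loci seldom overlapped annotated genes and were often end to end with them. The median gap to the nearest annotated gene was 3165 bases in jejunum and 5468 in liver, against 4444 and 4134 bases for annotated genes. Nearest annotated genes lay within 5000 bases, without overlap, for 56.0% of jejunal and 47.7% of liver loci, against 38.4% and 38.6% of annotated genes. An annotated gene overlapped 4 loci in jejunum and 0 in liver, whereas 9.30% and 9.85% of annotated genes overlapped another on the other strand and 4.41% and 4.84% on the same strand. Loci farther than 5000 bases from a gene made up 43.1% in jejunum and 51.9% in liver, against 47.8% and 46.7% of annotated genes. Loci past the 3′ end of a gene on the same strand numbered 119 in jejunum and 45 in liver, and loci before the 5′ start of one 73 and 46. The largest class near genes was tail to tail, in which the locus lies past the 3′ end of the gene and is listed on the other strand. It held 261 loci in jejunum (24.6%) and 156 in liver (23.1%), against 14.6% and 14.4% of annotated genes. Among loci without an intron its share was 45.0% in jejunum and 44.0% in liver, and among the others 13.7% and 12.2%. Head to head with a gene, where both start side by side on opposite strands, were 142 loci in jejunum (13.4%) and 75 in liver (11.1%), against 9.78% and 10.5% of annotated genes. Within 100 bases of a gene lay 180 jejunal loci (16.9%) and 86 liver loci (12.7%).

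Some loci correspond by position to genes that a newer annotation names. The genes on either side of a locus were looked up by symbol in RefSeq for the rat assembly GRCr8, using only the order of genes. Of 531 jejunal and 300 liver loci whose flanking genes stand within 200000 bases there, 278 and 161 had at least 1 RefSeq gene in that interval that the table does not list. The intervals held a long noncoding RNA for 196 and 106 loci, a pseudogene for 84 and 56, and a protein-coding gene for 68 and 45. A shared interval does not show that the locus is that gene.

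In jejunum 10 loci rose and 3 fell with antibiotics (limma on log2 of the normalized count plus 1, Benjamini-Hochberg over all features, adjusted p below 0.05). That is 1.22% of the loci against 1.28% of all 19450 features tested, for the rises alone 0.941% against 0.761%, and for the falls 0.282% against 0.519%. The groups did not overlap for 26.2% of loci and for 27.9% of all features. The median log2 fold change was -0.05 for the loci and 0.06 for all features. Of annotated jejunal genes with a mean of at least 10, 1.68% were called and 32.4% did not overlap between groups. The share of loci called in jejunum was thus near that of all features and below that of such genes. The authors' deposited table lists 48 of the loci as higher and 47 as lower at an adjusted p below 0.05, or 8.94% of them against 8.22% of all entries. All 1063 loci passed the filter for the test, a mean of at least 1. The 13 calls became 4 with edgeR (3 higher and 1 lower) and 0 with a correction for gene length, and 7 of the 10 rises have 3000 bases or more. Leaving out any 1 antibiotics library left 0 of the 13 calls, where at most 0.0155% of all features were called. Without wild-type library 1 there were 62 higher and 21 lower, without library 2, 2 and 2, and without library 3, 1 and 0. These were 7.81%, 0.376% and 0.0943% of loci, against 9.79%, 0.554% and 0.317% of all features.

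The jejunal loci that rose included the longest ones. The longest jejunal locus, chr11:61996594-62013102, spans 16509 bases between the microRNA gene Mir568 and Zbtb20, a transcriptional repressor gene, and overlaps Gramd1c. It had 914, 801 and 861 normalized counts with antibiotics and 248, 117 and 77.4 in wild type. All antibiotics libraries were higher, and it rose by 2.70 on the log2 scale (SE 0.38, adjusted p = 0.0224), while Gramd1c had a log2 fold change of 0.02. A second long locus, chr2:23022809-23038453, lies 3736 bases past the end of Jmy, an actin nucleator gene. Its counts were 2327, 1463 and 2115 with antibiotics and 722, 331 and 204 in wild type (2.40, SE 0.41, adjusted p = 0.0354), and Jmy rose too (2.12, adjusted p = 0.0432).

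Next to Synpo2, which encodes an actin-binding protein of muscle, chr2:227250204-227255039 had 5856, 3847 and 4502 normalized counts with antibiotics and 1787, 750 and 695 in wild type. The locus rose by 2.25 (SE 0.37, adjusted p = 0.034) and Synpo2, 863 bases away, by 2.49 (adjusted p = 0.0363). Fbxo32, the muscle ubiquitin ligase atrogin-1, lies 52 bases from chr7:98059669-98063683. That locus had 2242, 1515 and 2056 with antibiotics and 794, 300.3 and 305 in wild type (2.19, SE 0.38, adjusted p = 0.0354), and Fbxo32 rose by 2.32 (adjusted p = 0.0108). Neither group overlapped the other at these loci, and all 3 are tail to tail with the gene named.

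The locus chr18:56948950-56969901 lies between Csnk1a1 and Mir145, a microRNA gene of smooth muscle. It had 2808, 1578 and 1926 normalized counts with antibiotics and 923, 235 and 323 in wild type, and rose by 2.31 (SE 0.45, adjusted p = 0.0402). In RefSeq the interval holds Carmn, a long noncoding RNA of smooth muscle, and the ribosomal pseudogene Rps23-ps2. Further rises were chr2:35072057-35074339 near Rgs7bp, a regulator of G protein signalling (2.16, adjusted p = 0.0379), and chr4:15706976-15710278, which is 139 bases from the calcium channel subunit gene Cacna2d1 (1.83, adjusted p = 0.0375). The remaining 3 were chr17:60734737-60736528 (2.10), chr20:25054823-25063727 (1.97) and chr14:54649046-54869807, nearest to the protocadherin gene Pcdh7 (1.93). Of the 10, 6 are tail to tail with a gene. The summed smooth muscle markers given above were higher in each of the same antibiotics libraries. All 4 enteric neuron markers were also above 0 in log2 fold change, with 0 past the threshold. The 10 loci were called as higher in these libraries, so a shared direction was fixed by the choice. The part of cell types in these rises was not tested.

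Among the 3 jejunal falls, chr12:24720071-24722238 lies between the syntaxin gene Stx1a and the hydrolase gene Abhd11, 45 bases from Abhd11. It had 210, 324 and 204 normalized counts with antibiotics and 529, 1106 and 1121 in wild type (log2 fold change -1.85, SE 0.34, adjusted p = 0.037). Abhd11-as1, a long noncoding RNA, stands in that interval in RefSeq. Abhd11 had 65.5, 52.5 and 70.5 with antibiotics and 133, 155 and 151 in wild type, without passing (-1.21, adjusted p = 0.0887). The locus chr1:102742097-102756570 had 5.65, 16.9 and 19.5 with antibiotics and 63.7, 258 and 114 in wild type (-3.21, SE 0.66, adjusted p = 0.0454). Far from genes, chr7:102198690-102201495 between Lratd2 and Myc had 11.3, 22.0 and 5.67 with antibiotics and 123, 164 and 66.7 in wild type (-3.17, SE 0.62, adjusted p = 0.04). At each of the 3 every antibiotics library was below every wild-type library.

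**Figure D2:**
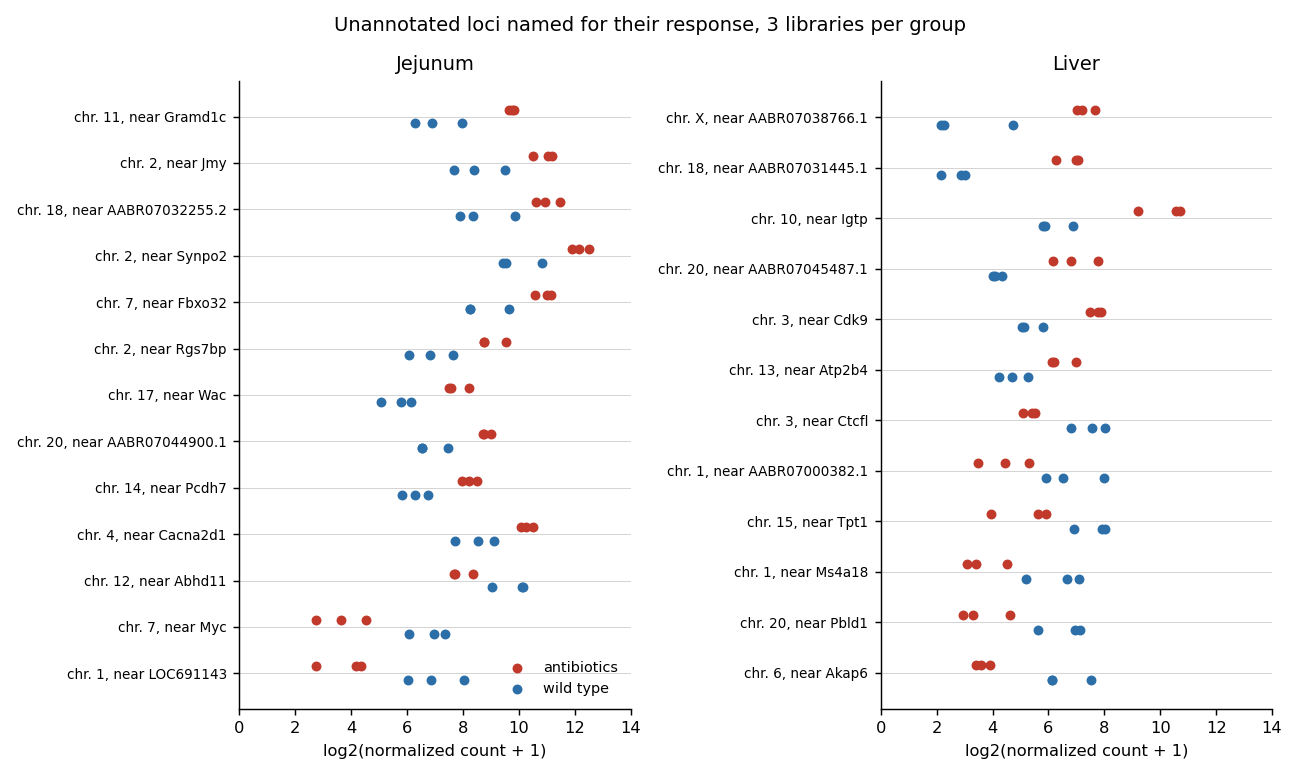
Normalized counts, as log2 of the count plus 1, of the unannotated loci named for their response, with 3 antibiotics libraries (red, upper row of each pair) and 3 wild-type libraries (blue, lower row) per locus, in jejunum (left) and liver (right). Labels give the chromosome and the nearest annotated gene. Red and blue points do not overlap at any of these loci, which were chosen for that, and the jejunal log2 fold changes lie between 2.70 and -3.21 and the liver ones between 4.24 and -2.95.

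In liver most of the loci that passed the threshold were lower. With antibiotics 31 loci rose and 99 fell, together 19.3% of the 675 loci against 12.8% of all 16540 features. For falls alone the share was 14.7% of loci against 4.89% of all features, and for rises 4.59% against 7.93%. Of these calls, 15 rises and 14 falls reached the minimum only through the group where they are high, so they are not independent of the choice. Among the 552 loci with both group means at 10 or more, 16 rose and 85 fell. Over all 675 loci the groups did not overlap for 45.5%, against 37.8% of all features. Antibiotics were the lower group for 234 loci (34.7%) against 18.1% of all features, and the higher group for 73 loci (10.8%) against 19.7%. All features include those with a mean of 1 to 10. Of annotated liver genes with a mean of at least 10, 15.9% were called, 10.2% as higher and 5.70% as lower. The groups did not overlap for 43.4% of such genes. The loci had a median log2 fold change of -0.48, all features -0.01 and annotated lincRNAs -0.51, of which 13 rose and 17 fell among 126. All 675 loci passed the filter on low values. Counts moved with the libraries kept: without wild-type library 3 there were 7 rises and 2 falls, without library 1, 25 and 30, and without library 2, 68 and 212. These were 1.33%, 8.15% and 41.5% of loci, against 0.447%, 5.57% and 26.7% of all features. Without antibiotics libraries 1, 2 and 3 the rises and falls were 11 and 25, 14 and 25, and 12 and 23. These were 5.33%, 5.78% and 5.19% of loci, against 2.91%, 3.19% and 2.30% of all features. Scaling by library totals gave 33 rises and 50 falls, or 12.3% of loci against 9.24% of all features. The authors' deposited table called 47 of the loci higher and 169 lower, or 32% of them against 16.5% of all entries.

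**Figure D3:**
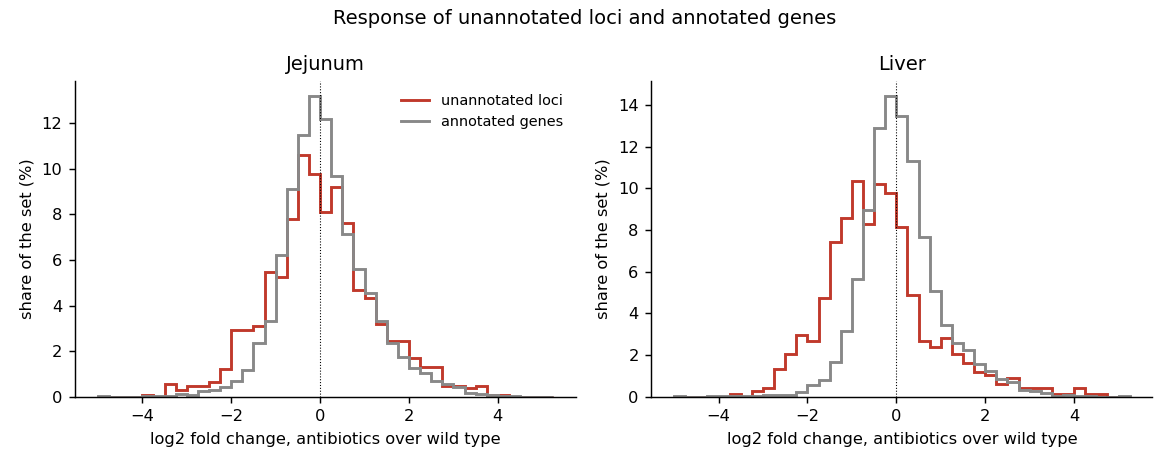
Distribution of the log2 fold change of antibiotics over wild type for unannotated loci (red) and annotated genes with a mean of at least 10 (grey), as the share of each set, in jejunum (left) and liver (right). In jejunum the curves are centred alike, with medians of -0.05 and 0.02, and in liver the red curve lies to the left, with a median of -0.48 against 0.02.

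The downward shift in liver was present at each length. Loci shorter than 1000 bases had a median log2 fold change of -0.77, against -0.51 for annotated genes of that length. One of the shortest liver loci, chr17:43473061-43473322 with 262 bases past the end of the anion transporter gene Slc17a4, had 60.7, 83.8 and 42.8 normalized counts with antibiotics and 164, 101 and 213 in wild type, and fell (-1.33, SE 0.34, adjusted p = 0.0345). Between 1000 and 3000 bases the medians were -0.52 and -0.08, and from 3000 bases up -0.23 and 0.25. In jejunum the corresponding medians were -0.50 against -0.51, -0.07 against -0.09, and 0.34 against 0.30. Jejunal loci thus lay close to annotated genes of their length, and liver loci below them. With a correction for gene length the liver counts were 38 rises and 69 falls.

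The largest liver rises lay in several kinds of place. The locus chrX:60210373-60211714, with 462 bases and 180031 bases from the nearest annotated gene, had 144, 128 and 204 normalized counts with antibiotics and 3.82, 25.5 and 3.42 in wild type (log2 fold change 4.24, SE 0.65, adjusted p = 0.0104). On chromosome 18, chr18:14984474-15007044 had 125, 76.2 and 132 with antibiotics and 6.37, 7.15 and 3.42 in wild type (log2 fold change 4.09). The groups at both loci are far apart. The wild-type mean of the chromosome 18 locus was under 10. That locus reached the minimum only through the antibiotics livers, so no test is given for it. Near Igtp, an interferon-induced GTPase gene, chr10:43656491-43658658 had 1689, 1524 and 592 with antibiotics and 57.3, 55.2 and 118 in wild type. It rose by 3.98 (SE 0.46, adjusted p = 0.00697), while Igtp itself, 3101 bases away, rose by 0.83 (adjusted p = 0.0419).

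Past the end of Cdk9, a kinase gene of transcription elongation, chr3:11726524-11739576 had 218, 179 and 237 normalized counts with antibiotics and 31.8, 55.2 and 34.2 in wild type. That locus rose by 2.39 (SE 0.28, adjusted p = 0.00458), and Cdk9 had a log2 fold change of -0.23 (adjusted p = 0.414). Further named rises were chr20:48972579-48979859 (2.76, adjusted p = 0.00747) and chr13:50032630-50082301 with a PH domain family, near the calcium pump gene Atp2b4 (1.70, adjusted p = 0.0218). One locus on the unplaced sequence AABR07024203.1, from 61993 to 95599, had 0 reads in each wild-type liver. With antibiotics it had 12.9, 31.8 and 24.0 normalized counts, and it carries an adaptin family. It reached the minimum only through the antibiotics livers, so no test is given for it. Of the 44 liver loci with a wild-type mean under 10, 15 passed as higher, and of the 79 with an antibiotics mean under 10, 14 passed as lower. Among the 552 loci with both means at 10 or more, 16 rose and 85 fell, where 7.93% of all liver features rose and 4.89% fell.

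Among the largest liver falls, chr6:74247930-74272689 had 13.9, 10.9 and 9.75 normalized counts with antibiotics and 181, 69.5 and 68.5 in wild type (log2 fold change -2.95, SE 0.43, adjusted p = 0.00705). Its call held in all 18 alternatives. Between Ctcfl and Pck1, the gluconeogenesis gene, chr3:171177304-171187388 had 44.8, 32.7 and 42.0 with antibiotics and 257, 112 and 186 in wild type (-2.12, SE 0.33, adjusted p = 0.00821). The locus chr20:27120993-27121630 lies 3330 bases before Pbld1 and had 8.96, 23.5 and 6.75 with antibiotics and 140, 49.0 and 122 in wild type (-2.95, SE 0.53, adjusted p = 0.0127). At all 3 the antibiotics libraries were lower than every wild-type library, and wild-type library 1 was the highest.

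The remaining 3 falls named by size were as follows. In the cluster of Ms4a genes, chr1:227093780-227108625 had 21.9, 7.54 and 9.75 normalized counts with antibiotics and 136, 35.7 and 99.3 in wild type (log2 fold change -2.64, adjusted p = 0.0196). The locus chr15:57911013-57913090, between Tpt1 and Gtf2f2, had 58.7, 14.2 and 48.0 with antibiotics and 262, 120 and 243 in wild type (-2.48, adjusted p = 0.0266). A RhoGEF family marks chr1:11772267-11804645, which had 20.9, 10.1 and 39.0 with antibiotics and 91.7, 250.2 and 59.3 in wild type (-2.39, adjusted p = 0.0401).

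Loci tail to tail with a gene moved differently from that gene in liver. Both members passed the minimum in 138 such pairs. Of these loci 4 rose and 27 fell (median log2 fold change -0.44), while 62 of their 138 neighbours rose and 1 fell (median 1.17). The neighbours' share of rises was 44.9%, against 7.93% of all liver features. A locus had the lower log2 fold change of its pair in 131 of 138 pairs (94.9%), against 691 of 1411 tail-to-tail pairs of annotated genes (49.0%). In 82 pairs the neighbour was above 0 and the locus below 0, and in 1 pair the reverse held. This comparison was added after the values were seen.

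**Figure D4:**
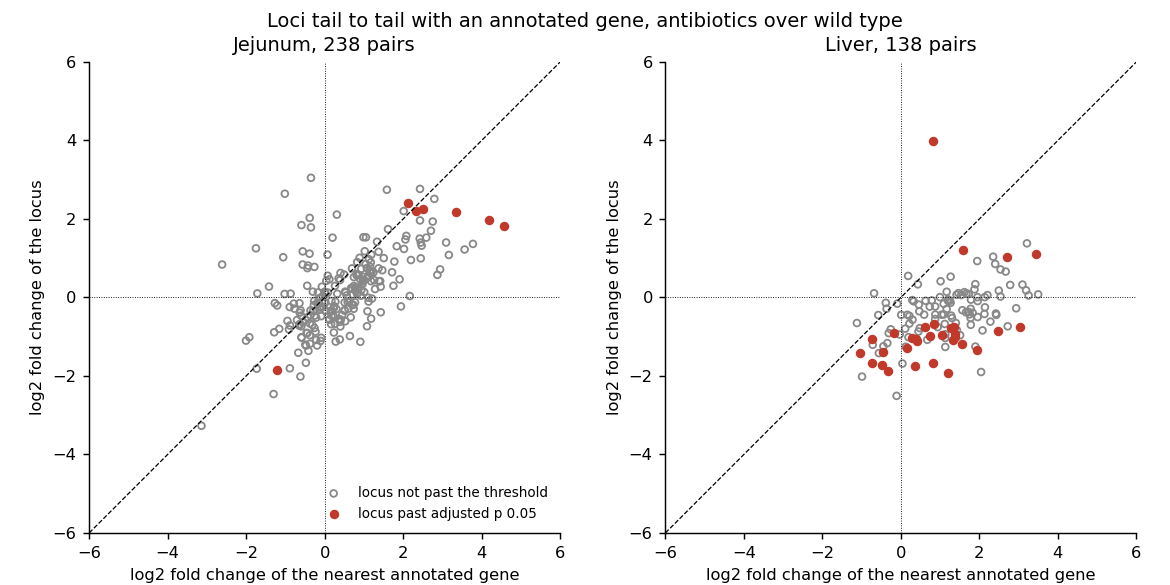
Log2 fold change of antibiotics over wild type of each unannotated locus (vertical axis) against that of the annotated gene it lies tail to tail with (horizontal axis), for 238 pairs in jejunum and 138 in liver. Filled red points are loci past an adjusted p of 0.05 and the dashed line marks equal change. In liver 131 of 138 points lie below the line, and in jejunum 166 of 238.

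The level of a locus relative to its neighbour was then taken in each library, as a log2 ratio in which the scaling of the library cancels apart from the pseudocount of 1. The median log2 ratio of locus to neighbour was -0.25, -0.22 and -0.61 in liver with antibiotics and 1.57, 0.62 and 1.35 in wild-type liver. Antibiotics livers thus lay below all wild-type livers, with wild-type library 2 the nearest to them. For tail-to-tail pairs of annotated genes the medians were 0.03, 0.02 and 0.07 with antibiotics and 0, -0.0012 and 0 in wild type. Most of these loci, 97 of 138, have no intron in the table. Of the 41 others, 38 (92.7%) had the lower log2 fold change of their pair, with a median difference of -1.31. The 32 annotated genes without an intron that lie tail to tail with another also had lower medians with antibiotics, -1.18, -1.31 and -1.43, against -0.08, -1.03 and -0.08 in wild type, although 16 of 32 had the lower log2 fold change of their pair. For the 97 loci the medians were -0.06, -0.10 and -0.46 with antibiotics and 2.14, 0.84 and 1.79 in wild type, and 93 of 97 (95.9%) were below the neighbour. Lower medians by library were thus not limited to unannotated loci. An excess of pairs with the lower log2 fold change was seen for the 97 loci and not for the 32 annotated genes. Locus and neighbour had similar median lengths, 2164.5 and 2334 bases, and similar median counts, 167 and 160 normalized counts. As to single pairs, when the ratio was fitted with limma over all 4053 liver features that have an annotated neighbour within 5000 bases, 75 of the 138 tail-to-tail loci fell relative to the neighbour and 1 rose. Over all these pairs 7.5% fell and 5.67% rose, and a gene can enter more than 1 pair. The calls depended on which libraries were kept, as 0 of the 138 passed without antibiotics library 1, 2 or 3 or without wild-type library 1 or 3, and 100 fell without wild-type library 2. In those 5 fits 129 to 132 of the 138 loci had a fitted change of the ratio below 0, a description over pairs that share the same libraries. Wild-type libraries 1 and 3 also held the largest mitochondrial shares among the livers, 25.0% and 16.0%, and the part of this in the ratio was not tested.

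**Figure D5:**
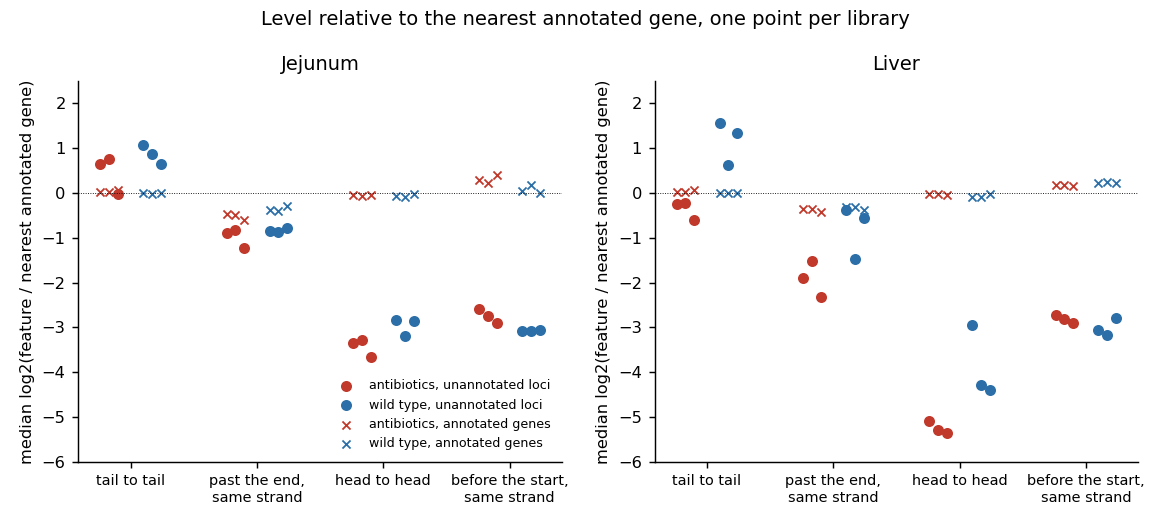
Median log2 ratio of a feature to its nearest annotated gene within 5000 bases, with 1 point per library, for antibiotics (red, left) and wild type (blue, right). Circles are unannotated loci and crosses annotated genes, by position and listed strand, in jejunum and liver. In liver the tail-to-tail circles are at -0.25, -0.22 and -0.61 with antibiotics and at 1.57, 0.62 and 1.35 in wild type, while the tail-to-tail crosses, of which 1379 of 1411 pairs have a gene with introns, lie at -0.0012 to 0.07.

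The most abundant of the loci that fell against their neighbour show how the pairs behaved. Past the end of Abhd2, a lipase gene, chr1:141090045-141092219 had 10977, 7677 and 6645 normalized counts with antibiotics and 3830, 7492 and 4959 in wild type, which overlap. Abhd2 had 5256, 3838 and 4770 with antibiotics and 399, 1316 and 709.8 in wild type. The gene rose by 2.67 (adjusted p = 0.00932) and the locus had a log2 fold change of 0.66 (adjusted p = 0.155), so the ratio fell by 2.01 (SE 0.32, adjusted p = 0.0309).

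Edem1, which acts in the disposal of misfolded glycoproteins, lies 1 base from chr4:140915780-140921029. The locus had 5594, 4296 and 2715 with antibiotics and 2001, 2577 and 2150.1 in wild type. Counts of Edem1 were 3954, 3295 and 2941 with antibiotics and 483, 843 and 636 in wild type, and the ratio fell by 1.55 (SE 0.29, adjusted p = 0.0313). At Slc25a23, a mitochondrial carrier gene 2 bases from chr9:10001964-10003599, the locus had 3084, 2951 and 2904 with antibiotics and 6359, 3055 and 3850.5 in wild type. The gene had 2077, 1883 and 2363 with antibiotics and 332, 1103 and 430.2 in wild type, so the locus groups overlap and the gene was higher in each antibiotics liver (ratio -2.46, SE 0.64, adjusted p = 0.0467).

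Elovl5, a fatty acid elongase gene, lies 2 bases from chr8:85285985-85287450. The locus had 2174, 1340.4 and 1129 with antibiotics and 3090.3, 2469 and 2476 in wild type, against 1488, 948 and 1104 with antibiotics and 124, 830.4 and 199 in wild type for Elovl5 (ratio -2.92, adjusted p = 0.0423). Beside Myorg, a glycosidase gene, chr5:57874611-57876483 had 2366, 1977 and 1311 with antibiotics and 800, 936 and 799 in wild type. Myorg had 1882, 1755 and 1419 with antibiotics and 94.3, 348 and 111 in wild type. Both rose, the locus by 1.12 (adjusted p = 0.0191) and Myorg by 3.43 (adjusted p = 0.0101). Near Ndst1, a heparan sulfate enzyme gene, chr18:55951497-55955341 had 1778, 1587 and 2087 with antibiotics and 867, 2432 and 1938 in wild type, and Ndst1 had 1011, 979 and 1906 with antibiotics and 72.6, 575 and 249 in wild type (ratio -2.32, adjusted p = 0.0309). In all 6 pairs the gene was higher in each antibiotics liver than in any wild-type liver. The locus was higher in the same way beside Edem1 and Myorg, lower beside Elovl5, and overlapped between groups beside Abhd2, Slc25a23 and Ndst1. These 6 pairs were chosen after their values were seen, from loci already called as lower against the neighbour. The direction of their ratio was thus fixed by the choice, and they do not stand for all pairs. Over the 138 tail-to-tail pairs 4 loci rose and 27 fell, and 103 were below 0. The single locus that rose against its neighbour was that beside Igtp (ratio 3.16, adjusted p = 0.0309).

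For loci in other positions near genes the liver counts are given beside the 7.5% of all pairs that fell and the 5.67% that rose. Past the end of a gene on the same strand, 13 of 37 loci fell against the neighbour and 1 rose (median difference -0.87). Head to head, 11 of 59 fell and 1 rose (median -1.02). Before the start of a gene on the same strand, 4 of 36 fell and 4 rose (median 0.17), and 16 of 36 (44.4%) had the lower log2 fold change of the pair. Tmem87a, a Golgi membrane protein gene, is an example on the same strand: it had 124, 84.6 and 94.5 with antibiotics and 29.3, 68.4 and 24.0 in wild type. The locus chr3:112128138-112132073, 278 bases past its end, had 95.6, 82.9 and 54.0 with antibiotics and 239, 146 and 195 in wild type. The gene rose by 1.43 (adjusted p = 0.0426) and the locus fell by 1.32 (SE 0.29, adjusted p = 0.0211).

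In jejunum the locus of a tail-to-tail pair had the lower log2 fold change in 166 of 238 pairs (69.7%), against 48.8% of annotated pairs. Over 238 tail-to-tail pairs the log2 fold changes of locus and neighbour had the same sign in 71.0% (Pearson r = 0.60, a description over pairs that share the same 6 libraries), against 53.4% and r = 0.10 for 1786 such pairs of annotated genes. Signs were equal for 55.2% of 125 head-to-head loci and 52.8% of 339 loci farther from a gene. In liver the corresponding values were 39.9% and r = 0.45 for 138 pairs, against 51.5% and r = 0.06 for 1411 pairs. The median log2 ratio of locus to neighbour in jejunum was 0.66, 0.75 and -0.01 with antibiotics and 1.08, 0.86 and 0.65 in wild type, which overlap. Medians for 41 annotated tail-to-tail genes without an intron were -0.94, -0.85 and -0.76 with antibiotics and -0.21, -0.26 and -0.31 in wild type. None of the 519 jejunal loci with a neighbour passed the fit of the ratio by limma, nor did any of 5104 pairs (0%), and 32 of the 238 tail-to-tail loci (13.4%) had an unadjusted p below 0.05, against 20.0% of all pairs. A count of 0 here does not show that the ratios were equal.

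Few loci could be matched between the tissues. Although 910 identifiers occur in both tables, 0 of them have the same coordinates. Identical coordinates were found for 8 pairs of entries, of which 3 pass the minimum in both tissues. The locus near Tmem87a is one of them, with 246, 430.3 and 185 in jejunum with antibiotics and 337, 464 and 316 in wild-type jejunum, and liver values as above. Its response in jejunum minus that in liver was 1.01 on the log2 scale and did not pass (edgeR quasi-likelihood test over 12 libraries, unadjusted p = 0.051, adjusted p = 0.255). The others, chr14:47733311-47733776 and chr11:73980943-74013375 near Atp13a3, differed by -0.37 and 0.78 (unadjusted p = 0.679 and 0.129). In this test 8 of 14190 features passed (0.0564%), 0 of the 3 loci passed by edgeR, DESeq2 or limma, and 0 had an unadjusted p under 0.05 by edgeR.

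Overlap gave more matches. On the same strand, 187 pairs overlapped by at least 50% of each locus and passed the minimum in both tissues, which is 17.6% of the jejunal and 27.7% of the liver loci. Only 37 of them share a start or an end. Of the 187, 119 had the higher FPKM in jejunum, 5 by at least 10-fold, and 3 were at least 10-fold higher in liver. Each tissue was scaled on its own, so such levels across the tables are descriptive. In liver 36 of the 187 pairs passed the treatment test, where 12.8% of all features did, and in jejunum 0, where 1.28% did, and no pair passed the test of the tissue difference (edgeR, 7 of 14452 features or 0.0484% called), with 52 of 187 at an unadjusted p below 0.05 against 19.9% of all features. The locus on chromosome 18 with a log2 fold change of 4.09 in liver had an overlapping jejunal locus at -0.34 (adjusted p = 0.814). No test of the difference is given for it, since the liver locus reached the minimum only through the antibiotics livers.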

How the data were processed

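Paired reads of poly(A) RNA came from 3 antibiotics and 3 wild-type libraries of each tissue. Tools named in the submitters' processing notes are HISAT2 2.0.5, DESeq2 1.20.0 and CASAVA 1.4. The genome build, the counter and the assembler of the unannotated entries are not given in the sources used here. The deposited normalized counts are a signal, counts that the authors divided by 1 size factor per library. All values (100%) were whole multiples of 1 step per library within 0.01, so whole reads were recovered. The deposited FPKM values are the same counts divided by listed length and by 1 constant per library, as found in the authors' table. The authors' deposited table also gives log2 fold changes and p-values of antibiotics over wild type.

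Because the values are not raw counts, the main test was limma 3.58.1 (R 4.3.3, with trend and robust variances) on log2 of the normalized count plus 1, over features with a mean of at least 1 and Benjamini-Hochberg adjustment over all of them. Differences between tissues used edgeR 4.0.16 on recovered reads, and read shares an exact permutation test. DESeq2 1.42.0 was an alternative. The scripts were tested on simulated data. Members and lists were chosen with earlier results of these data known. The Pfam groups, the RefSeq look-up and the ratio to a neighbour were chosen after the values were seen. Named loci are the 6 most abundant, the longest and shortest, those nearest the minimum, those at 0 in a group, those with identical coordinates, and up to 6 of the largest rises and falls that were called, did not overlap between groups and averaged 50 or more. The other jejunal rises, the Pfam loci and the neighbour pairs were added.

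Each library holds 14592126 to 19318616 reads.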

Additional observations from a re-analysis of the deposited data

How the results depend on the processing

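The counts of called loci moved with the tool and with single libraries. In jejunum, 10 rises and 3 falls became 3 and 1 with edgeR under RLE or TMM factors, 48 and 47 with DESeq2, 3 and 0 with library totals, 0 and 0 with a correction for gene length, and falls became 1 with a pseudocount of 0.1. Leaving out 1 library gave 0 to 62 rises and 0 to 21 falls. Called loci were then 0% to 7.81% of the set, against 0.00515% to 9.79% of all features. In liver, 31 rises and 99 falls became 47 and 169 with DESeq2 and 50 falls with library totals. Leaving out 1 liver library gave 7 to 68 rises and 2 to 212 falls. Called loci were then 1.33% to 41.5% of the set, against 0.447% to 26.7% of all features. The 75 liver loci lower against their tail-to-tail neighbour ranged over 0 to 100, in an alternative added after seeing the data. DESeq2 was run on the recovered reads and gave the same counts as the authors' deposited table. The cause of these changes was not tested.

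The labels do not say whether equal replicate numbers mark paired samples. Deviations of same-numbered libraries correlated at 0.08, 0.105 and 0.017 in jejunum and at 0.05, -0.055 and -0.082 in liver. Those of differently numbered libraries correlated at -0.096 to 0.022 in jejunum and at -0.076 to 0.13 in liver. With 3 libraries per group these values cannot show whether the samples were paired. With a replicate block, jejunum had 41 rises and 29 falls, or 6.59% of loci against 8.35% of all features, and 0 of the 75 liver neighbour calls passed.

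The jejunal share of reads differed by -0.247 to 0.138 percentage points when 1 library was left out, with 2 of the 6 above 0. Among single jejunal loci, the log2 fold change changed sign with library totals at chr20:19481254-19485846 (0.11), chr3:62487236-62491356 (0.21), chr3:112128138-112132073 (0.057) and chr14:46329443-46329907 (0.018, and 0.23 with the length correction), and the first ran from -1.27 to 0.46 without 1 library. Library totals also moved the median of all jejunal features to 0.50, and of the loci to 0.42. In liver, chr11:73980943-74013375 had -0.00974 and -0.00984 with edgeR under RLE and TMM factors, -0.28 with the length correction and -0.10 to 0.19 without 1 library. None of these had passed the threshold. Of the remaining values of single loci under the alternatives, 668 kept their direction and their side of the threshold, 150 lost the call, 14 gained one and 6 moved beyond the spread of replicates. Of loci with a mean of 10 to 50, 0 of 603 passed by limma in jejunum, against 0.134% of annotated genes with such a mean. In liver 17 of 336 such loci rose (5.06%) and 30 fell (8.93%). Annotated genes with such a mean rose in 7.40% and fell in 2.25%.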
